A study of Mus musculus with 8 samples.

Results

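The mRNAs of 34 mouse genes that fold, unfold, cut or degrade proteins inside mitochondria were measured in aged muscle with and without *Grsf1*, which encodes an RNA-binding protein of mitochondrial RNA granules. The genes were chosen by name as 12 chaperones and cochaperones, 19 proteases and peptidases, and 3 scaffold proteins of the inner membrane. The rule used no measured value, although earlier results of these data were known when it was set. All 34 genes were on the array, with 60 probes among the 56605 probes that carried a gene or transcript, and all 60 were well above background in each of the 6 mice. After a filter on dim probes, these were 60 of 38888 probes and 34 of 17034 named genes that were tested.

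The samples were muscles of 3 Grsf1cKO and 3 WT male mice aged 17 months. In Grsf1cKO mice, alleles derived from Grsf1tm1a, freed of their LacZ and Neo cassettes with FLPo mice, carried floxed exons that were removed by Myf5Cre, a recombinase made from the locus of a muscle precursor gene. The sources call the WT mice wildtype controls and do not state whether they carried Myf5Cre or a floxed allele. The labels name the vastus intermedius and the study's methods name the rectus femoris, a neighboring quadriceps muscle. RNA was taken from whole muscle, so fewer cells of a type and less RNA per cell cannot be told apart.

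Nearly all mitochondrial proteins are made in the cytosol and imported unfolded. Inside, the chaperone mtHSP70 (*Hspa9*) pulls them in and helps them fold with its J-domain partners and nucleotide exchange factors, and the HSP60-HSP10 chaperonin (*Hspd1*, *Hspe1*) encloses them while they fold. Peptidases remove their targeting sequences, and ATP-driven proteases such as LONP1, CLPXP and the *m*-AAA and *i*-AAA complexes degrade those that are damaged, unassembled or no longer needed. Transcription of *Hspd1*, *Hspe1*, *Clpp* and *Lonp1* is a common readout of the mitochondrial unfolded protein response, in which cells with misfolded mitochondrial proteins raise these mRNAs. The many mitochondria of muscle need this machinery.

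The start regions of 3 genes are shown because *Hspd1* and *Hspe1* are copied away from each other from one stretch of chromosome 1 and were each measured by probes of their own, while *Clpp* and *Clpx* encode the 2 parts of one protease. Each runs 5′ to 3′ on the gene's strand from 250 bases before to 50 bases after the start that RefSeq gives in GRCm38.p6. Capitals mark matches on either strand to letters that are bound by known factors, described after the sequences. *Hspe1* is at chr1:55087898-55088197 on the plus strand, *Clpp* at chr17:56990014-56990313 on the plus strand and *Clpx* at chr9:65294010-65294309 on the plus strand.
Hspe1: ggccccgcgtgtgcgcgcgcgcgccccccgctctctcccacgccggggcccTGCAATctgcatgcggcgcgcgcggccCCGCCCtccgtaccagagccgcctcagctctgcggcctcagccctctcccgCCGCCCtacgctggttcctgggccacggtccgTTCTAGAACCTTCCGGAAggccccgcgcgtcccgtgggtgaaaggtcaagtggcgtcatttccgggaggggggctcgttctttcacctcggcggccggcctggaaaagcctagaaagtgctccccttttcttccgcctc
Clpp: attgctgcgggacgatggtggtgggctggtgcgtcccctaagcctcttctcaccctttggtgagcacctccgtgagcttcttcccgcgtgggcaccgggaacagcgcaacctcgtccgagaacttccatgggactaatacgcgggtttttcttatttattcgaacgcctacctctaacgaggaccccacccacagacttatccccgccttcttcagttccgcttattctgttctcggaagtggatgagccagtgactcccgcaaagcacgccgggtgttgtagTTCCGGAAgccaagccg
Clpx: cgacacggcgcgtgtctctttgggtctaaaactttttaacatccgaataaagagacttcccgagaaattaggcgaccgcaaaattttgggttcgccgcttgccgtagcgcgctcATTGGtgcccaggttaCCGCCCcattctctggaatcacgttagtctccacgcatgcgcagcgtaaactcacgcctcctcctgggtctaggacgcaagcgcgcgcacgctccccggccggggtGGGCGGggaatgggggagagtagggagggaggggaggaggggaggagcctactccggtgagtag

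The *Hspe1* window shared 285 bases with 1 of the 2 start regions listed for *Hspd1* and 4 bases with the other. It held TGCAAT, a hexamer bound by CHOP with C/EBP factors, at -199 from the start. From -89 on it held 3 overlapping inverted pairs of the GAA unit of heat shock elements (TTCTAGAA, GAACCTTC and TTCCGGAA), the middle pair sharing its units with the others. It also held the GC box GGGCGG, read on the other strand, at -172 and -121. The *Clpp* window had a single match, TTCCGGAA, and the *Clpx* window had 2 GC boxes and a CCAAT box. Start regions were at hand for 29 of the 34 genes, 30 regions in all. The TGCAAT and the heat shock pairs of *Hspd1* are the same bases as those of *Hspe1*, so the shares below leave out the *Hspd1* region with the 285 shared bases and rest on 29 regions. TGCAAT occurred in 6.9% of these 29 and in 8.4% of all 32851 regions of the same length. TGATGNAA, the core of the element bound by ATF4, occurred in 0 of the 29 and in 3.97% of all regions. The heat shock pairs GAANNTTC and TTCNNGAA occurred in 6.9% and 10.3% of the 29 regions and in 7.86% and 8.52% of all regions. The NRF1 palindrome (GCGC, any base, TGCGC) occurred in 20.7% against 4.6% of all regions (*Afg3l1*, *Dnaja3*, *Hspd1*, *Oma1*, *Phb* and *Spg7*), the GC box in 69% against 35.7%, and CCAAT in 37.9% against 37.4%. The letters of different motifs may overlap, and a match is a description of the sequence and not a measured binding site.

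The comparison asked whether the mRNAs of this machinery differed between Grsf1cKO and WT muscle. *Grsf1* itself was first compared as a check of the labels. Its log2 signal was 12.15, 12.02 and 12.08 in the Grsf1cKO mice and 14.30, 14.25 and 14.27 in the WT mice, a change of -2.19 (SE 0.081, adjusted *p* = 0.00328, limma). Grsf1cKO mice were thus lower than every WT mouse in the targeted mRNA. Markers of skeletal muscle such as *Acta1*, *Ckm* and *Ttn* were well above background in all mice, and 0 of the 12 muscle markers passed the test or had an unadjusted *p* under 0.05. Their changes ran from -0.59 to 0.51, and 1 was more than 1.5-fold. The genotypes did not overlap for 1 higher and 1 lower marker (16.7% in all, against 9.24% of all genes). Whole arrays gave 66.3% to 73.1% of spots well above background, apart from 88.9% on the repeat array of Grsf1cKO 1. Values below are log2 signals after quantile normalization. They may be compared between mice for 1 probe but not between probes, and for a gene with several probes the brightest is given first. Values from the deposited *z*-scores were rescaled to log2 units with the mean SD of the arrays. The scores are rounded to 0.01, a step of 0.043 in log2 units on each array, close to the size of many changes below.

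No mitochondrial chaperone, protease, peptidase or scaffold mRNA passed the test for a change between genotypes. A probe was called when limma gave more than a 1.5-fold difference at a false discovery rate under 0.2 and an unadjusted *p* under 0.01. This was met by 0 of the 34 genes, against 0.00587% (1 gene, *Grsf1*) of the 17034 genes tested with 1 probe each, and by 0 of the 60 probes, against 0.00771% of all probes. More than a 1.5-fold difference, whatever its *p*, was seen for 0 of the 34 genes and for 3.79% of all genes. None of the 60 probes had an unadjusted *p* under 0.05, while 3.43% of all genes and 4.25% of all probes did. The lowest unadjusted *p* was 0.115, for *Hspa9*, and the lowest adjusted *p* was 0.996 (limma, 3 mice per genotype). With the *z*-test that the study's methods name, under the same criteria, 0 of the 60 probes and 0.975% of all probes were called, and 6 of the 60 had an unadjusted *p* under 0.05 (10% against 10.8% of all probes). That test, run here without the variance filter, the *z*-ratio and the expression minimum that the methods also list, takes the spread of the 3 mice per genotype for each probe alone and refers it to the normal distribution. With only the criteria on *p* and false discovery rate, 5 of the 60 probes (8.33%) and 5.09% of all probes passed, and the 5 probes belonged to *Hspa9*, *Yme1l1*, *Clpx*, *Dnaja3* and *Dnajc19*. With limma and an intensity trend an unadjusted *p* under 0.05 was found for 2 probes, of *Hspa9* and *Dnaja3* (3.33% against 3.55% of all probes), at a lowest adjusted *p* of 0.982. With the deposited *z*-scores it was found for 1 probe, of *Mipep* (1.67% against 3.99%). In the self-test on simulated probes, limma recovered 76% of the 2-fold increases at this number of mice. That simulation used normal noise and planted changes in far more probes than the 3 called here. More planted changes ease the false discovery rate criterion, so the 76% does not give the chance of calling a single changed member.

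**Figure D1:**
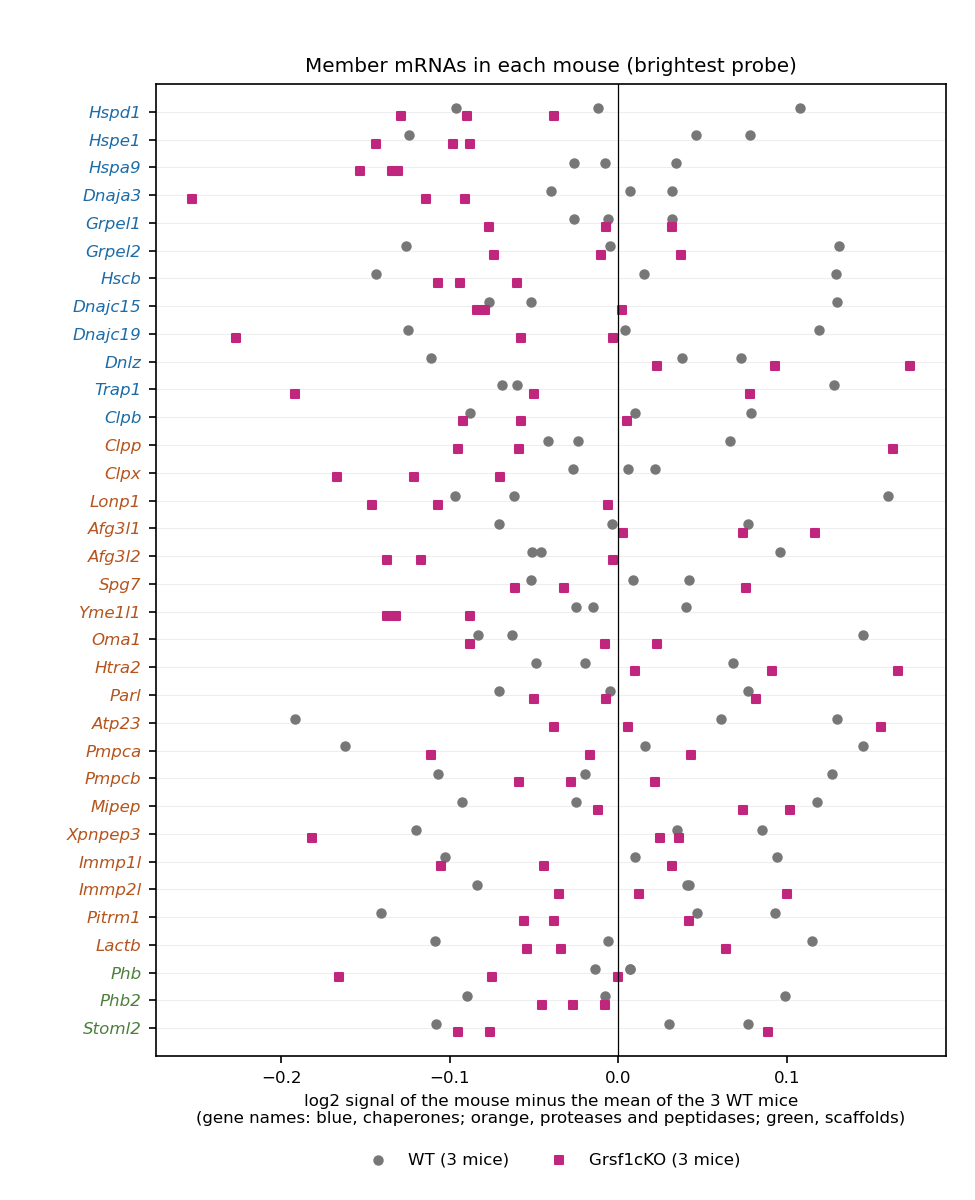
Log2 signal of the brightest probe of each of the 34 genes in each mouse, minus the mean of the 3 WT mice, with WT mice as gray circles and Grsf1cKO mice as magenta squares. Most rows mix the symbols, whereas the 3 squares lie left of all 3 circles for *Hspa9*, *Dnaja3*, *Clpx* and *Yme1l1*.

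The intervals bounded the changes. The 95% confidence interval of the difference lay within 1.5-fold either way for all 34 genes, and for 69.6% of all genes tested. Over the 34 genes the interval reached from -22.3% at its lowest end, for *Dnaja3*, to 26.0% at its highest end, for *Atp23*. The median SE was 0.094 on the log2 scale, compared with 0.126 over all genes. The median absolute change was 0.051, against 0.093 over all genes. Of the 34 changes, 26 were smaller than the SD among the WT mice, and 18 were smaller than the SDs of both genotypes. Repeat and first arrays of the same mouse differed by a median of 0.040 for Grsf1cKO 1 and 0.048 for WT 1, about as much as the genotypes did.

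**Figure D2:**
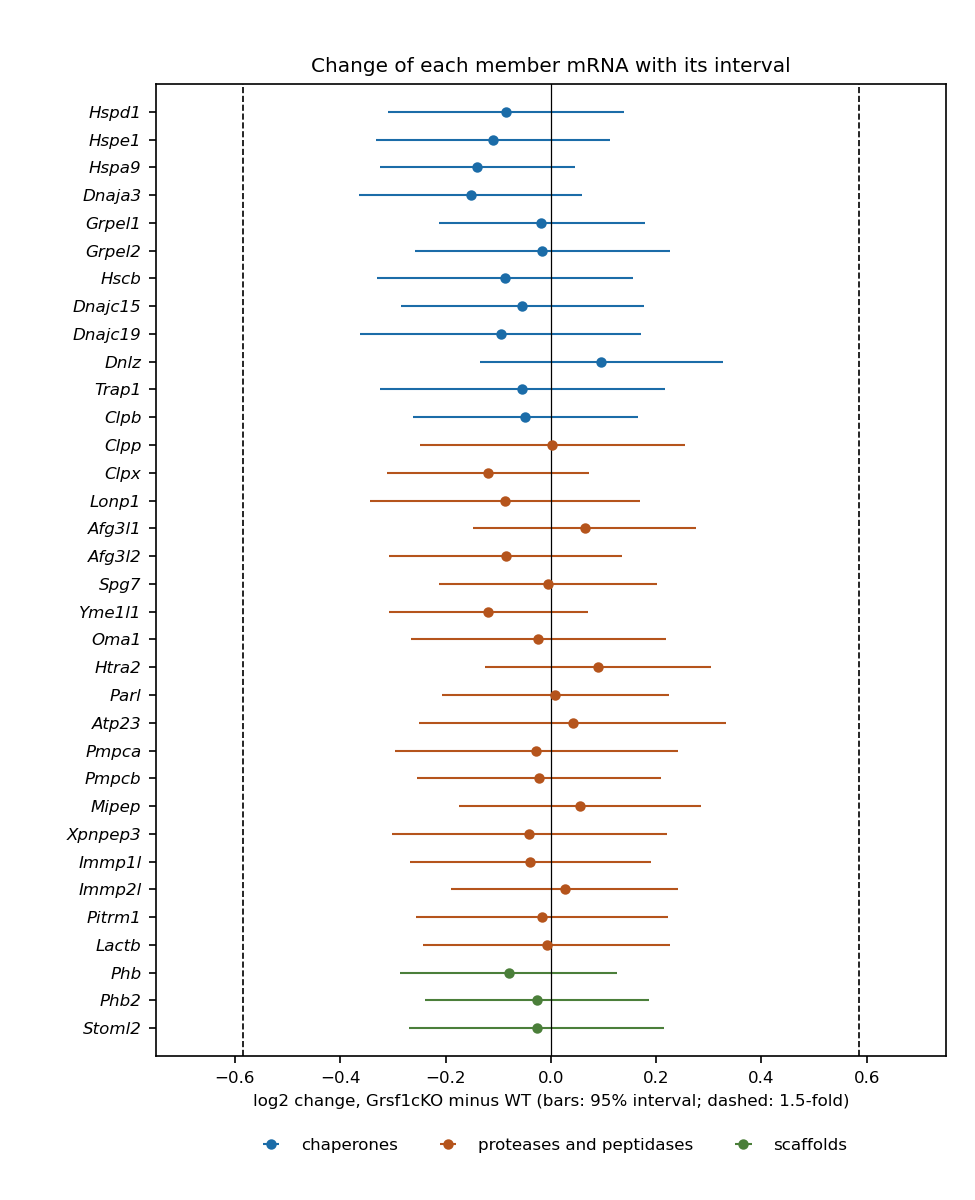
Log2 change (Grsf1cKO minus WT, brightest probe) of each of the 34 genes with its 95% confidence interval from limma, 3 mice per genotype. Every interval includes 0 and stays inside the dashed lines that mark a 1.5-fold change.

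The chaperonin mRNAs overlapped between genotypes in the main comparison. *Hspd1*, which encodes HSP60, the barrel in which imported proteins fold, gave 16.04, 15.99 and 15.95 in Grsf1cKO mice and 16.19, 16.07 and 15.99 in WT mice. WT 1 was highest, and WT 3 lay level with Grsf1cKO 2. The change was -0.085 (SE 0.091, 95% interval -0.31 to 0.14), and that of its second probe was -0.081. It was -0.031 without WT 1 and -0.13 without WT 3, when *Hspd1* had no overlap. *Hspe1*, which encodes the lid HSP10, gave 15.05, 15.11 and 15.10 in Grsf1cKO mice and 15.24, 15.28 and 15.07 in WT mice. Here WT 3 fell among the Grsf1cKO mice, and the change of -0.11 (SE 0.091) was accompanied by -0.024 and -0.035 at the other 2 probes. It was -0.071 without WT 2 and -0.17 without WT 3, and *Hspe1* had no overlap without WT 3 or with 75th percentile scaling. On slide 2 it was -0.048. *Hspd1* and *Hspe1* therefore gave intervals that included 0. The value of *Hspd1* went from -0.085 to 0.036 when the deposited *z*-scores were used, a shift larger than their rounding step.

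The mtHSP70 system held the member with the lowest *p*. *Hspa9*, which encodes mtHSP70 itself, gave 15.23, 15.23 and 15.21 in Grsf1cKO mice and 15.33, 15.39 and 15.35 in WT mice. The genotypes did not overlap, and the mice within each genotype lay close together (SD 0.012 and 0.031, n = 3 each). The change was -0.14 (SE 0.076, 95% interval -0.33 to 0.046), 9.24% lower in Grsf1cKO, with an adjusted *p* of 0.996 in limma and 1.75e-10 in the *z*-test of the methods. Its second probe gave -0.056, with genotypes that overlapped. *Dnaja3*, a J-domain cochaperone that delivers substrates to mtHSP70, had the largest change among brightest probes, with 14.77, 14.75 and 14.61 in Grsf1cKO mice and 14.90, 14.87 and 14.82 in WT mice. All Grsf1cKO mice were again lower, Grsf1cKO 3 most, at a change of -0.15 (SE 0.087). The other *Dnaja3* probe, which stands for another transcript of the gene, gave 0.027 with overlapping genotypes. It was far dimmer, with a mean log2 signal of 6.65 in Grsf1cKO and 6.62 in WT mice. The brightest probe had means of 14.71 and 14.86.

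The other partners of mtHSP70, with *Trap1* and *Clpb*, had changes from -0.095 to 0.096, all but that of *Dnlz* below 0. *Dnlz*, the escort protein that keeps mtHSP70 soluble, was the only chaperone gene whose brightest probe was above 0, with 12.94, 13.01 and 13.09 in Grsf1cKO mice and 12.81, 12.96 and 12.99 in WT mice. These overlapped (change 0.096, SE 0.094, or 0.041 without WT 1). Without Grsf1cKO 1 the change was 0.13 and the genotypes did not overlap. The second *Dnlz* probe gave 0.005. The nucleotide exchange factors *Grpel1* and *Grpel2* gave -0.018 and -0.016. *Hscb*, a cochaperone of iron-sulfur cluster assembly, gave -0.087, and the J-domain proteins of the import motor, *Dnajc15* and *Dnajc19*, gave -0.054 and -0.095. For *Dnajc19* the spot on the repeat array of WT 1 was missing, so that WT 1 rests on its first array. *Trap1*, the mitochondrial HSP90, and *Clpb*, a disaggregase of the intermembrane space, gave -0.054 and -0.049.

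Among the 12 chaperone genes, 11 had a change below 0 with a median of -0.070, but only 6 of 12 were below 0 with the deposited *z*-scores, where the median was -0.011. Of all genes tested, 57.5% were below 0, with a median of -0.023, and with the *z*-scores 60.1%, with a median of -0.043. The mean log2 signal of the 12 genes, relative to the WT mean, was -0.061, -0.042 and -0.088 in the Grsf1cKO mice and 0.035, -0.022 and -0.012 in the WT mice. These means did not overlap, but they did after subtracting the mean of all genes in each mouse (-0.019, -0.023 and -0.094 against 0.002, -0.025 and 0.023). They also overlapped with scaling to the 75th percentile and with the *z*-scores, but not after normexp, with first arrays only, with repeat arrays in their place, or on slide 2. Relative to all genes they did not overlap after normexp (-0.045, -0.034 and -0.077 against 0.006, -0.020 and 0.014) or on slide 2. Without WT 1 the median of the chaperones was -0.031.

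The matrix proteases had changes from -0.12 to 0.003. *Lonp1*, which encodes the main ATP-driven protease of oxidized matrix proteins, gave 14.94, 14.84 and 14.80 in Grsf1cKO mice and 15.10, 14.88 and 14.85 in WT mice. WT 1 stood above the rest, and Grsf1cKO 1 lay above WT 2 and WT 3. The change of -0.087 (SE 0.105) was -0.007 without WT 1 and -0.14 without WT 3, and without Grsf1cKO 1 the genotypes did not overlap. *Clpp*, the proteolytic chamber of CLPXP, gave 14.21, 13.95 and 13.99 in Grsf1cKO mice and 14.02, 14.00 and 14.11 in WT mice. The Grsf1cKO mice held both the highest and the lowest value, and the change was 0.003 (SE 0.103). It was -0.077 without Grsf1cKO 1, when the genotypes no longer overlapped, and 0.052 without Grsf1cKO 2.

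*Clpx*, the unfoldase that feeds this chamber, gave 13.95, 14.04 and 13.99 in Grsf1cKO mice and 14.14, 14.09 and 14.12 in WT mice. The highest Grsf1cKO mouse stayed under the lowest WT mouse (change -0.12, SE 0.079, 7.97% lower). Its second probe gave 0.011 with overlap. The difference between *Clpx* and *Clpp* was not tested.

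Of the AAA proteases of the inner membrane, *Yme1l1* (the *i*-AAA protease, facing the intermembrane space) was outside the rule for named genes and is described because its genotypes did not overlap. It gave 12.13, 12.14 and 12.18 in Grsf1cKO mice and 12.25, 12.31 and 12.24 in WT mice. The change was -0.12 (SE 0.077), and its second probe gave -0.096 with overlap. The *m*-AAA subunits face the matrix. *Afg3l1* gave 12.98, 13.09 and 13.05 in Grsf1cKO mice and 12.90, 13.05 and 12.97 in WT mice, which overlapped (change 0.064, SE 0.086). The change was 0.029 without WT 1 and 0.10 without WT 2, and *Afg3l1* had no overlap without WT 2 or on slide 2. Its other 3 probes gave -0.056, -0.061 and 0.14. *Afg3l2* gave -0.086 and *Spg7*, which encodes paraplegin, gave -0.005.

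Proteases of the intermembrane space and the other membrane proteases had a median change of 0.025. *Htra2*, a serine protease of the intermembrane space, gave 13.13, 13.21 and 13.28 in Grsf1cKO mice and 13.07, 13.18 and 13.10 in WT mice. WT 2 lay among the Grsf1cKO mice, and the changes of its 3 probes were 0.089 (SE 0.088), 0.077 and 0.073. The first was 0.051 without Grsf1cKO 3 and 0.13 without Grsf1cKO 1, and it had no overlap without Grsf1cKO 1, without WT 2 or on slide 2. *Oma1*, the stress-activated protease that cuts OPA1, gave -0.024, *Parl*, the rhomboid protease that cuts PINK1, gave 0.008, and *Atp23*, a metalloprotease, gave 0.042. *Atp23* had the widest range of the 34 genes over the 6 mice, 0.35 from lowest to highest, and *Grpel1* the narrowest, 0.11.

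The peptidases that trim targeting sequences after import had changes from -0.041 to 0.055. The subunits of the main processing peptidase, *Pmpca* and *Pmpcb*, gave -0.028 and -0.022. *Xpnpep3* gave -0.041, and *Immp1l* and *Immp2l*, the subunits of the inner membrane peptidase, gave -0.039 and 0.026. *Mipep*, the intermediate peptidase that removes a further piece from some precursors, gave 11.43, 11.46 and 11.34 in Grsf1cKO mice and 11.26, 11.47 and 11.33 in WT mice. They overlapped at a change of 0.055 (SE 0.094), which was 0.008 without WT 1 and -0.031 as the mean over its probes. The change was 0.11 without WT 2 and 0.12 on slide 2, and *Mipep* had no overlap in these 2 settings. Its second probe gave 0.046 and its last, which stands for a noncoding transcript, gave -0.19, the lowest value of the 60 probes. *Pitrm1*, which degrades cut targeting peptides, gave -0.017, and *Lactb*, a serine protease that forms filaments, gave -0.008. The 19 protease and peptidase genes had a median of -0.017, with 12 of 19 below 0, against 57.5% of all genes. This was 8 of 19 with the deposited *z*-scores (median 0.007) and 9 of 19 without WT 1 (median 0.008). It was 14 of 19 with 75th percentile scaling, after normexp and with repeat arrays in place of first. In these settings 52.4%, 56.2% and 58.9% of all genes were below 0.

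The scaffold genes *Phb*, *Phb2* and *Stoml2* encode ring-forming membrane proteins that hold the AAA proteases and PARL. Their changes were -0.080, -0.027 and -0.027, with overlap of the genotypes for each. Their mean relative to WT, -0.028, -0.066 and -0.040 in Grsf1cKO mice and -0.009, -0.001 and 0.010 in WT mice, did not overlap. It overlapped relative to the mean of all genes, with 75th percentile scaling and with the *z*-scores. The mean of all 34 genes was -0.030, -0.029 and -0.047 in Grsf1cKO mice and 0.029, -0.011 and -0.017 in WT mice, again without overlap, but with overlap when taken relative to all genes or with those 2 settings. After normexp it had no overlap relative to all genes either. The sign of the scaffolds' median turned with the deposited *z*-scores, from -0.027 to 0.021, and the cause was not tested. The second *Stoml2* probe gave 0.071.

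In all, 4 of the 34 genes (11.8%) had genotypes without overlap, *Hspa9*, *Dnaja3*, *Clpx* and *Yme1l1*, each lower in Grsf1cKO at its brightest probe. Over all genes, the share that did not overlap was 6.11% for lower values, 3.13% for higher values and 9.24% for either. The 11.8% was above the share for lower values and near that for either direction. Whether it differed from these shares was not tested. With 3 mice per genotype the exact permutation test, two-sided, cannot give a *p* below 0.1, which is the value for each of these 4 genes. Changes larger in absolute size were found in 31.8% of all genes for *Dnaja3*, 34.6% for *Hspa9*, 40.2% for *Clpx* and 40.5% for *Yme1l1*. On slide 2 alone, which held all Grsf1cKO arrays, WT 3 and the repeat of WT 1, the values were -0.14 for *Hspa9*, -0.14 for *Dnaja3*, -0.10 for *Clpx* and -0.082 for *Yme1l1*. With the deposited *z*-scores *Hspa9* was at -0.043, *Dnaja3* at -0.079, *Clpx* at -0.086 and *Yme1l1* at -0.14. As means over the probes of each gene they were -0.098, -0.063, -0.054 and -0.11, in the same order. Each probe counted equally in these means, also the dim probe of *Dnaja3*. In the *z*-test of the methods the adjusted *p* at the brightest probe was 0.137 for *Dnaja3*, 0.00895 for *Clpx* and 0.000469 for *Yme1l1*. With the deposited *z*-scores, only *Yme1l1* of the 34 genes had no overlap.

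Probes of the same gene limited the reading of single values. Among the 19 genes with several probes, 7 had probes with changes of opposite sign (*Mipep*, *Afg3l1*, *Dnaja3*, *Clpx*, *Stoml2*, *Spg7* and *Parl*). An opposite sign need not mean a wide spread. The probes of *Parl* ran only from -0.008 to 0.008 and those of *Spg7* from -0.005 to 0.028. Those of *Dnlz*, all above 0, ran from 0.005 to 0.096. For each of the 4 genes without overlap at its brightest probe, the other probe overlapped. Among the dimmer probes, 1 of *Dnajc19* had no overlap, lower in Grsf1cKO by a change of -0.053. Whether a probe also bound RNA of a pseudogene was not tested.

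**Figure D3:**
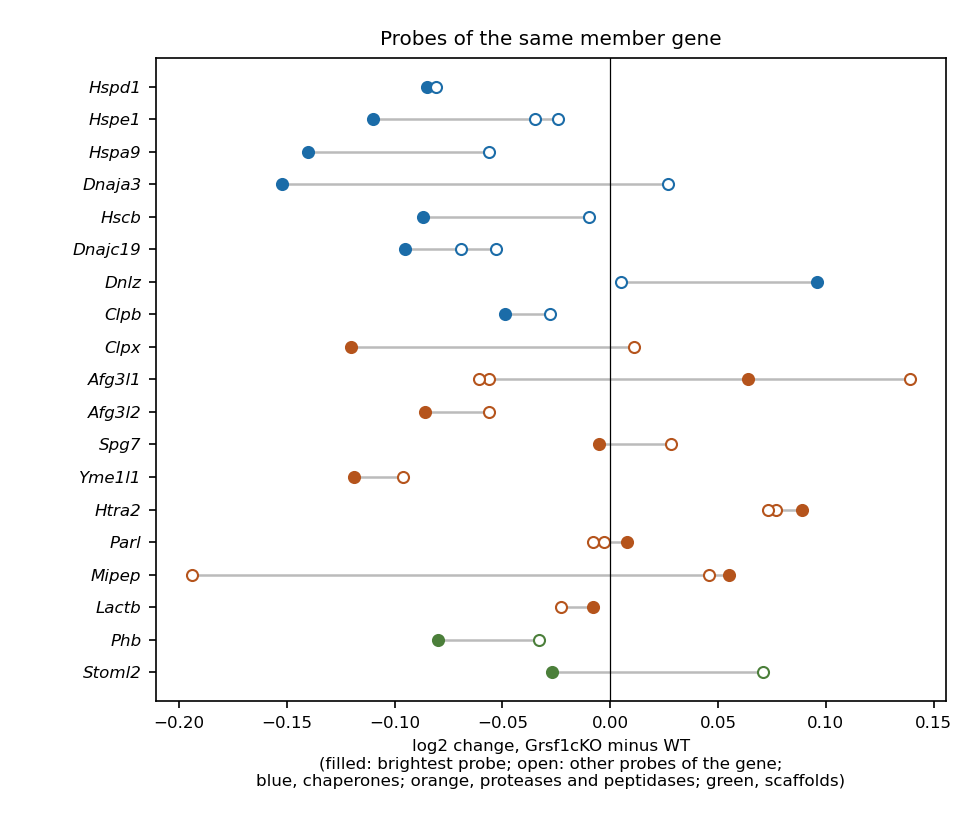
Log2 change (Grsf1cKO minus WT) of each probe of the 19 genes with more than 1 probe, with the brightest probe filled and the others open. The points of a gene fall on both sides of 0 for 7 genes, and the longest line belongs to *Mipep*.

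The extremes fell on some mice more often than on others. WT 1 had the highest signal of the 6 mice for 14 of the 34 genes, and Grsf1cKO 3 the lowest for 10. The SD among WT mice was the larger for 24 genes (median 0.098 in WT, 0.066 in Grsf1cKO). Markers of other cell types also differed between mice. The mean of 6 macrophage markers, relative to the WT mean, was 0.76 in Grsf1cKO 3 and -0.15 to 0.14 in the other 5 mice, and each of the 6 was well above background in all mice. The mean of 6 fibroblast markers was 0.38 in Grsf1cKO 3 and -0.14 to 0.21 in the other mice, and that of 6 adipocyte markers ran from -0.50 to 0.20 in Grsf1cKO and from -0.76 to 0.41 in WT mice. Of the macrophage, fibroblast, adipocyte, endothelial and Schwann cell markers, 0 had an unadjusted *p* under 0.05 at the brightest probe. Over all their probes, 1 of 10 macrophage and 1 of 11 Schwann cell probes did (limma), against 4.25% of all probes. Their part in the values of the 34 genes was not tested. Without Grsf1cKO 3 the change of *Dnaja3* was -0.10.

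Lists of related pathways had no calls in limma. Of 32 genes of the import machinery (the TOM, TIM and related complexes), 0 were called, with a median of -0.035, and the genotypes did not overlap for 3 higher and 2 lower genes (15.6% in all, against 9.24% of all genes). Of 40 tested genes of cytosolic chaperones, 0 were called, with a median of 0.026 and 6 higher and 1 lower gene without overlap (17.5% in all; of all genes, 3.13% were higher and 6.11% lower). The 22 mitochondrial stress response factors had 0 calls, a median of 0.033 and overlap for each gene, from -0.42 to 0.30 apart from *Fgf21*, a secreted hormone that was well above background in only 2 Grsf1cKO mice and 1 WT mouse. A list of 16 genes, most of them known substrates of these proteases, had 0 calls, a median of 0 and 1 higher gene without overlap (6.25% in all, against 9.24% of all genes). In this list *Mgarp*, a mitochondrial transport protein, had an unadjusted *p* of 0.0115 (adjusted *p* = 0.996, limma) and was the gene without overlap. It was well above background in all 3 Grsf1cKO mice but in only 1 WT mouse, so its change has no measured size and it passed the filter through the genotype in which it was higher. The *z*-test of the methods called 1 probe of this list and 0 of the other 3. Whether any of these lists differed from another was not tested.

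**Figure D4:**
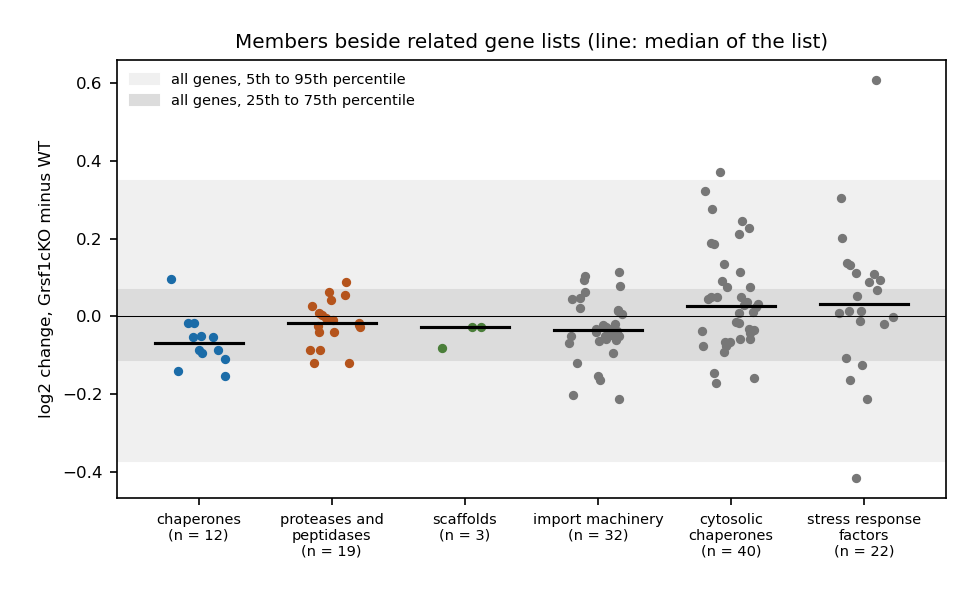
Log2 change (Grsf1cKO minus WT, brightest probe) of each gene in the groups of mitochondrial chaperones, proteases and peptidases and scaffolds and in the related lists, 1 point per gene with a line at the median. The median of all genes is -0.023 and that of the chaperones -0.070, while with the deposited *z*-scores they were -0.043 and -0.011.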

How the data were processed

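RNA from 6 muscles, 3 per genotype, was hybridized to 8 Agilent 1-color arrays, with repeat arrays for WT 1 and Grsf1cKO 1. Per the file headers, the authors deposited Feature Extraction (version 12.0.3.1) output holding the intensity of each spot on a linear scale. The authors also deposited a score for each spot, a *z*-score, which equaled the centered and scaled log2 intensity within 0.005. The study's methods name quantile normalization and a *z*-test.

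Here control spots were removed, non-uniform and population outlier spots were treated as missing, and processed signals of the 8 arrays were quantile normalized and averaged per probe and then per mouse as log2 values. The precision is limited by the number of mice, 3 per genotype, and arrays. Probes well above background in at least 3 mice, with values in at least 2 mice per genotype, entered a limma fit (version 3.58.1, R 4.3.3) on genotype alone, with Benjamini-Hochberg adjustment over all probes. Nothing states how the mice were related, so *p*-values measure the spread between these animals. The limma step was tested on simulated data. Gene names came from transcript accessions in the RefSeq table of GRCm38.p6 (32994 of 56605 probes named), and start regions from RefSeq.

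Values of each mouse are given for *Hspd1*, *Hspe1*, *Hspa9*, *Lonp1*, *Clpp* and *Clpx*, for any member with an unadjusted *p* under 0.05, and for the 3 largest changes among probes in each direction. From the other lists, genes with an unadjusted *p* under 0.05 at the brightest probe are named. The members and lists were chosen with earlier results of these data known. Alternatives covered normalization, background, filters, repeat arrays, slide, replicate number, test, probe choice and each mouse left out.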

Additional observations from a re-analysis of the deposited data

How the results depend on the processing

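No member probe was called under any of the alternatives, and the intervals of all tested member probes stayed within 1.5-fold in every limma fit. Over the whole array, 3 probes were called, against 1 with the replicate number as a block, 379 with the *z*-test and 2 to 4 with a mouse left out. The replicate numbers do not pair the mice by any label. Same-numbered mice correlated at 0.23, 0.097 and 0.10 in their deviations, differently numbered ones at -0.19 to 0.094. Each correlated best with its own number, but Grsf1cKO 2 correlated nearly as well with WT 3 (0.094) as with WT 2 (0.097). Whether the mice were paired was not tested. With this block the *Grsf1* probe used as a check had a change of -2.19 but was no longer called (adjusted *p* of 0.25, limma). Of the member probes, 0 were called. Of the member genes, 4 were lower without overlap, against 1 with the *z*-scores, 2 with the mean over the probes of a gene, 6 on slide 2 and 4 to 8 with a mouse left out (8 without Grsf1cKO 1 or without WT 3). The share of all genes was 6.11%, 5.42% with the *z*-scores, 6.12% with the mean over probes, 13.5% on slide 2 and 10.8% to 13.9% with a mouse left out. None was higher, against 3 on slide 2 alone and 0 to 3 with a mouse left out (3 without WT 2, 2 without Grsf1cKO 1), while the share of all genes was 3.13%, 7.57% on slide 2, 7.69% without WT 2 and 7.77% without Grsf1cKO 1. The median of the chaperones was -0.070, -0.011 with the *z*-scores and -0.093 to -0.031 with a mouse left out. That of the scaffolds was -0.027, with -0.037 after 75th percentile scaling, -0.055 after normexp, 0.021 with the *z*-scores, -0.041 on first arrays, -0.043 with repeat arrays in their place, -0.051 with the slide as a block, -0.063 on slide 2 and -0.077 to -0.017 with a mouse left out. The proteases and peptidases went from -0.031 (without WT 2) to 0.008 (without WT 1). *Clpp* changed sign in 8 of 19 settings, and *Hspd1*, *Lonp1* and *Mipep* in 1 each. The cause of these shifts was not tested.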
